A study of Mus musculus with 6 samples.

Results

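The circular RNAs of Fmn2, the gene of the actin-nucleating protein formin 2, were examined in mouse hippocampus. A circular RNA (circRNA) is a ring closed by joining the end of one exon to the start of the same or an earlier exon, and it leaves out the free ends of the linear transcript. Members were the circRNAs whose host list held the Ensembl identifier of Fmn2, ENSMUSG00000028354, which gave 14 of the 10652 circRNAs in the deposited table. All 14 were exonic and listed Fmn2 as their 1 host. The gene was selected on measured values: its summed circRNA level and its leading circRNA stood near the top of the table, with higher means under stress. Levels and group differences of Fmn2 are therefore given as descriptions.

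Formins build unbranched actin filaments by holding the growing end of a filament while profilin delivers actin. Formin 2 is abundant in the central nervous system and in oocytes, where, in mouse, it works with the Spire nucleators on an actin mesh that moves the meiotic spindle. In neurons, formin 2 has been studied in growth cone filopodia and dendritic spines, and disruption of the human gene has been linked to intellectual disability.

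The samples were hippocampi of adult male C57BL/6J mice bought at 8 to 10 weeks of age, with no genetic change named in the labels. The Control group held 3 libraries without the stress schedule and the CUS group held 3 libraries from mice under chronic unpredictable stress, in which varied mild stressors were given 2 to 3 times a day for 4 weeks. The samples are described as independent, but whether a library stands for 1 mouse is not stated, so any p-value measures the spread between these samples. Poly(A) RNA was selected in 2 rounds before library preparation, per the labels' protocols. A ring has no poly(A) tail, so recovery of circRNAs from such libraries can be uneven.

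A level below is 10 to the deposited log10 value, with an entry of 0 kept at 0, and it has no named unit. In each library all values under 300 steps lay within 0.05 of a whole multiple of a library-specific step (100% of values), with a lowest entry of 17 steps. The inverse of the step, as a relative depth, was 90.8% to 100% of the deepest library in Control and 81.9% to 89.8% in CUS. Control libraries held 4329 to 4606 circRNAs above 0 and CUS libraries 3991 to 4273. The number of reads behind a level is unknown, so no counting interval is given, and an entry of 0 does not show absence. Marker host genes were read as summed circRNA levels. Of 11 neuronal markers, 10 had a circRNA (Snap25 had none), with sums of 27799 to 29658 in Control and 25889 to 29372 in CUS. Microglial markers had 0 of 5, vascular and choroid markers had 1 of 5 (sums of 0 to 176 in Control and 0 to 233 in CUS), and Gfap, Aqp4, Slc1a3, Mobp, Mag, Gad1 and Gad2 had none. Lack of a circRNA does not show lack of the transcript.

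Fmn2 lies on the plus strand of chromosome 1, 174501825 to 174822729 (GRCm38, GENCODE vM21), a span of 320905 bp. Its full-length transcript has 18 exons and 6442 bases. Of the 16 inner exons, exon 5 (chromosome 1, 174608382 to 174609952) has 1571 bases and the next longest 167, with a median of 107. Introns run from 153 to 46951 bp, with a median of 19449. The table gives no coordinates for the rings, so the exons in each are not known, no junction sequence is shown, and levels could not be divided by ring length.

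Identifiers of the members run from mmu_circRNA000705 to mmu_circRNA000719, and 1 number of that run, 715, is not among them. Pairs of members had nearly the same level in every library and may share reads. mmu_circRNA000711 and mmu_circRNA000717 differed by at most 16 steps, or 4.37%, in the 5 libraries that held them. mmu_circRNA000712 and mmu_circRNA000718 differed by at most 8 steps in the 4 libraries that held them. Both pairs were counted once in sums, which left 12 members. Another pair, mmu_circRNA000706 and mmu_circRNA000707, differed by at most 4 steps but was above 0 in 2 libraries, below the minimum of 3 set for pairing. mmu_circRNA000710 and mmu_circRNA000716 had the same level in CUS replicate 1 (250 steps each) but differed by up to 235 steps elsewhere and were kept apart. In both counted-once pairs, and between mmu_circRNA000710 and mmu_circRNA000716, the identifier numbers differ by 6.

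Detection varied among members. Of the 84 values, 57 were above 0, and the lowest of these was 61.9 (21 steps). mmu_circRNA000705 and mmu_circRNA000709 were above 0 in all 6 libraries, 4 members in 5 libraries, 4 in 4, 1 in 3 and 3 in 2. None was confined to 1 group. Control replicates 1 to 3 held 9, 7 and 9 of the 14 members and CUS replicates 1 to 3 held 10, 11 and 11. With pairs counted once these numbers were 8, 6 and 7 against 8, 9 and 10, so CUS replicate 1 tied with Control replicate 1.

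**Figure D1:**
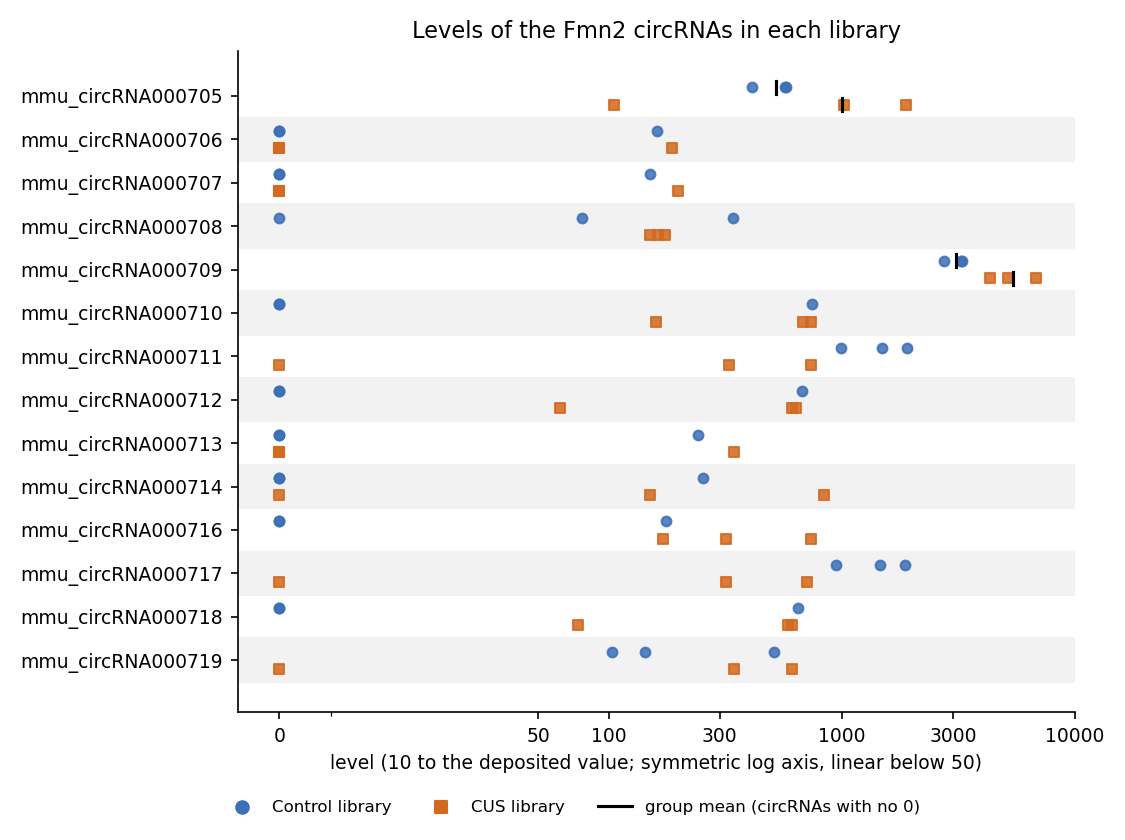
Levels of the 14 Fmn2 circRNAs (rows) in the 3 Control and 3 CUS libraries (points) on a symmetric log axis that is linear below 50, with group means as black bars for the 2 circRNAs above 0 in all 6 libraries. The points of mmu_circRNA000709 lie to the right of all others, with CUS (4330.1 to 6798) beyond Control (2749.8 to 3271), while the points of mmu_circRNA000711 and its pair mmu_circRNA000717 lie lower in CUS.

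The leading circRNA of Fmn2, mmu_circRNA000709, had Control levels of 2749.8, 3255 and 3271 and CUS levels of 6798, 4330.1 and 5151. Every CUS library was above every Control library, and the mean was 5427 ± 1257 under stress against 3092 ± 296 without (SD, n = 3 each), 1.76-fold higher in CUS. On the log2 scale used for testing, log2(level + 45.5), the difference was 0.78 with SE 0.36, and the SE was 0.86 in a fit without a variance trend. Read in steps, without the scale factor of the library, its Control values were 1139, 1291 and 1230 and its CUS values 2306, 1610 and 1895, so the groups did not overlap on that scale either. By level not divided by ring length, its ranks were 36, 22 and 16 within the Control libraries, in replicate order, and 2, 7 and 5 within the CUS libraries. It was the highest Fmn2 circRNA in each of the 6 libraries. In a bulk sample, fewer cells of a type and less RNA per cell cannot be told apart, and the same holds for more.

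Markers of hippocampal cell types were read in the same libraries. Of 24 marker host sums tested, 0 passed in limma and 7 had an unadjusted p under 0.05 (5.39% over all hosts). Of the 7, Grin2b, Rfx3, Adarb2 and Cpne4 were fitted higher in CUS and Grm5, Tenm3 and Galntl6 lower. Cpne4 reached the 3 libraries above 0 needed for testing through CUS alone, and nothing is read from this count. Summed circRNA levels of astrocyte markers (4 of 7 with a circRNA) ran from 1085 to 1525 in Control and 1710 to 2642 in CUS, and those of oligodendrocyte markers (4 of 7) from 1374 to 1758 and 2039 to 2989. Hosts within both lists went both ways. Of 4 astrocyte hosts tested 3 were fitted higher in CUS, while Gpc5 was lower (377, 1056 and 801 against 348, 296 and 179). Of 3 oligodendrocyte hosts tested 2 were fitted higher, while Prr5l was lower (616, 305 and 213 against 0, 0 and 598). Mbp, not tested, was above 0 in CUS replicate 3 alone (506). CA pyramidal markers (2 of 5; Mpped1, Fibcd1 and Man1a had none) summed to 3926 to 6936 in Control and 2229 to 2948 in CUS. The lower sum lay in 1 host, Tenm3 (3942, 3926 and 6936 in Control against 2084, 2676 and 2177), while Cpne4, at 0 in every Control library, was above 0 in all 3 CUS libraries (144, 272 and 381). Dentate granule markers (4 of 5, without Calb1) and interneuron markers (3 of 5) overlapped between groups, with dentate sums of 2474 to 5501 in Control against 4439 to 7288 in CUS, and interneuron sums of 1987 to 4271 in Control against 1938 to 6579 in CUS. Of 3 dentate hosts tested 2 were fitted higher in CUS, while Cntnap5a was lower (973, 2582 and 947 in Control against 1798, 169 and 446 in CUS). Of 3 interneuron hosts tested 2 were fitted higher, and of 9 neuronal hosts tested 2 were fitted higher. The part of cell makeup and of relative depth in the Fmn2 levels was not tested.

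The paired mmu_circRNA000711 and mmu_circRNA000717 went the other way. mmu_circRNA000711 had Control levels of 1497, 1901 and 992 and CUS levels of 330.2, 739.6 and 0. Its pair mmu_circRNA000717 had Control levels of 1458, 1871 and 949.5 and CUS levels of 318, 707 and 0. Every CUS library was below every Control library for both. The fitted log2 difference of mmu_circRNA000711 was -2.62 with SE 0.98, and without CUS replicate 3, where it was listed at 0, it was -1.43. In steps, mmu_circRNA000711 had Control levels of 620, 754 and 373 and CUS levels of 112, 275 and 0.

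The level of mmu_circRNA000709 was thus 1.84, 1.71 and 3.30 times that of mmu_circRNA000711 in Control replicates 1 to 3. In CUS replicates 1 and 2 it was 20.6 and 5.85 times as high, and no ratio is given for CUS replicate 3. This ratio within a library does not depend on the scale factor of the library. The 2 rings were set side by side because they went opposite ways, so a higher ratio in CUS follows from that choice. In all 3 Control libraries mmu_circRNA000711 was the second highest member with pairs counted once. In CUS, mmu_circRNA000705 was second in replicates 1 and 2 and mmu_circRNA000714 in replicate 3.

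mmu_circRNA000705 was the second member above 0 in all 6 libraries. It had Control levels of 579, 572 and 412 and CUS levels of 1895, 1022 and 106, with means of 521 ± 94.5 and 1008 ± 895 (SD, n = 3 each). The CUS libraries lay on both sides of the Control range, and the fitted log2 difference of 0.28 (SE 0.93) changed sign without CUS replicate 1 (-0.48) or CUS replicate 2 (-0.05).

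A group of members was listed at 0 in 2 Control libraries and above 0 in all 3 CUS libraries. mmu_circRNA000710 had Control levels of 744, 0 and 0 and CUS levels of 737, 683 and 160.4. mmu_circRNA000716 had Control levels of 176, 0 and 0 and CUS levels of 737, 320.04 and 171. The pair mmu_circRNA000712 and mmu_circRNA000718 was at 0, 0 and 673 and at 0, 0 and 652 in Control, with 61.9, 611 and 636 and 73.7, 589 and 614 in CUS. In each of these 4 members the 1 Control library above 0 was within or above the CUS range, so the groups overlapped. mmu_circRNA000712 and mmu_circRNA000718 may share reads. How many circRNAs of the whole table had this pattern was not counted, so nothing is read from it.

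The other members showed no order of the groups. mmu_circRNA000714 had Control levels of 0, 0 and 255 and CUS levels of 150.3, 0 and 843, with CUS replicate 3 the highest library. mmu_circRNA000719 had Control levels of 514, 103 and 144 and CUS levels of 0, 347 and 612. mmu_circRNA000708 had Control levels of 340.4, 0 and 77.1 and CUS levels of 174, 151 and 163, where the CUS values were close together and the Control values were spread around them. mmu_circRNA000713 was above 0 in Control replicate 1 (241) and CUS replicate 2 (344). mmu_circRNA000706 and mmu_circRNA000707 were above 0 in Control replicate 2 (161 and 151) and CUS replicate 3 (188 and 198).

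With pairs counted once, the summed Fmn2 level of Control replicates 1 to 3 was 6842, 6144 and 5825, and that of CUS replicates 1 to 3 was 10884, 8547 and 8228. The groups did not overlap (5.61% of host sums were higher in CUS in this way), with a mean of 9219.8 ± 1450.2 under stress against 6270.3 ± 520.2 without (SD, n = 3 each), 1.47-fold higher in CUS. The fitted log2 difference was 0.54 with SE 0.29. With all 14 counted the Control sums were 8300.1, 8015 and 7426 and the CUS sums 11276, 9844 and 8842, 1.26-fold higher in CUS, where mmu_circRNA000717 and mmu_circRNA000718 also enter. The sum of the members other than mmu_circRNA000709 had Control values of 4092, 2889.5 and 2554 and CUS values of 4086, 4217 and 3077, and here the groups overlapped.

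**Figure D2:**
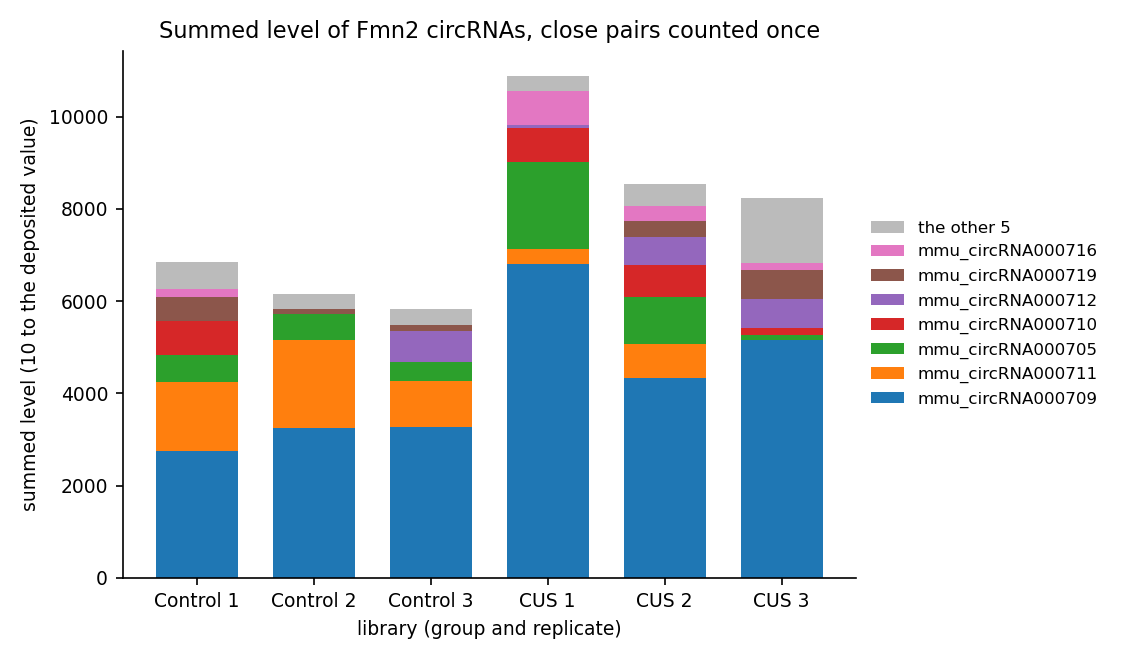
Summed level of Fmn2 circRNAs in each library with close pairs counted once, as bars stacked by circRNA (the 7 of highest mean in colour, the other 5 in grey). The CUS bars (8228 to 10884) are taller than the Control bars (5825 to 6842), the blue segment of mmu_circRNA000709 is larger in CUS, and the orange segment of mmu_circRNA000711 is smaller.

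As a share of the summed level, mmu_circRNA000709 had Control values of 40.2%, 53.0% and 56.2% against CUS values of 62.5%, 50.7% and 62.6%. The means were 49.8% ± 8.45 and 58.6% ± 6.86 (SD, n = 3 each), and CUS replicate 2 lay below Control replicates 2 and 3, so the groups overlapped. The difference of 8.80 percentage points was 4.01 without Control replicate 1. With all 14 members counted the shares were 33.1%, 40.6% and 44.1% in Control and 60.3%, 44.0% and 58.3% in CUS. mmu_circRNA000711 made up 21.9%, 30.9% and 17.0% in Control and 3.03%, 8.65% and 0% in CUS, where the groups did not overlap. Its level was lower and the summed level higher in every CUS library, so this order of the shares follows from those levels.

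**Figure D3:**
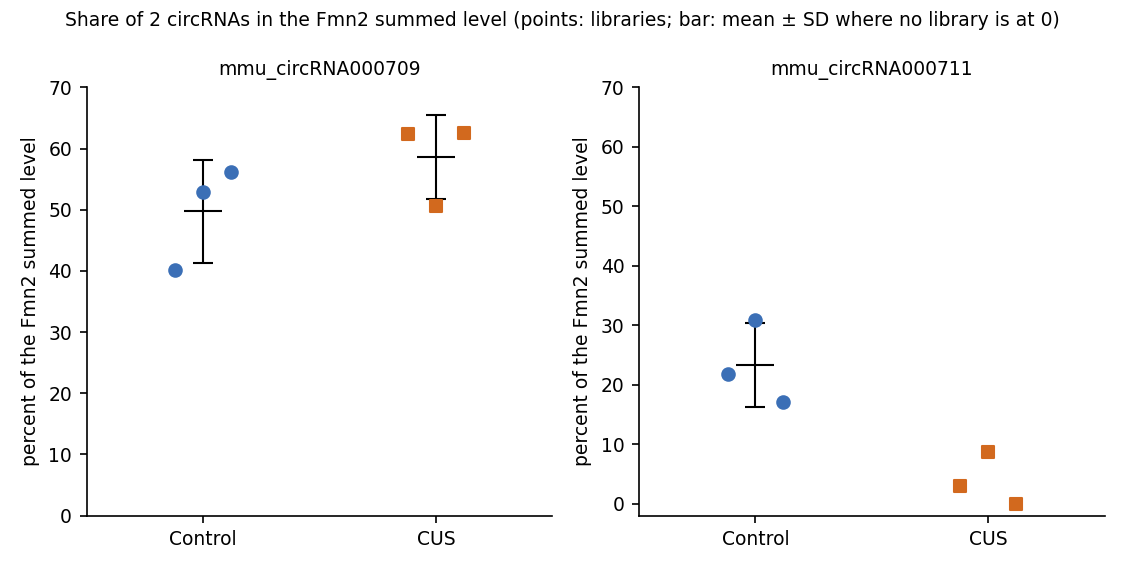
Share of mmu_circRNA000709 (left) and mmu_circRNA000711 (right) in the summed Fmn2 level of each library, in percent with close pairs counted once, and with mean ± SD where no library is at 0. The shares of mmu_circRNA000709 overlap between Control (40.2% to 56.2%) and CUS (50.7% to 62.6%), and those of mmu_circRNA000711 do not (17.0% to 30.9% against 0% to 8.65%).

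All circRNAs above 0 in at least 3 libraries were fitted with limma to ask which differ between CUS and Control. Of the 14 Fmn2 circRNAs, 11 passed this filter, and mmu_circRNA000706, mmu_circRNA000707 and mmu_circRNA000713 did not. None of the 11 had an adjusted p under 0.05 in limma, with a lowest adjusted p of 0.577 (mmu_circRNA000711 and its pair), against 0 of 3896 (0%) over the whole table. At an unadjusted p under 0.05 there were 3 of the 11 (mmu_circRNA000709 and the paired mmu_circRNA000711 and mmu_circRNA000717) and 234 of the 3896 (6.01%). The place of mmu_circRNA000709 in that count depended on the fit, since its unadjusted p was at or over 0.05 in 9 of 14 alternatives, among them the fit without a variance trend. Without CUS replicate 3 there were 0 of 10 members. Groups did not overlap for 1 member that was higher in CUS, where 225 of 3896 (5.78%) did so, and for 2 paired members that were lower, where 198 (5.08%) did so. These shares are given as background to members chosen with their levels known, and nothing is read from the comparison. Fitted differences of the 11 ran from -2.62 to 2.36 on the log2 scale, 8 above and 3 below 0 (7 and 2 with pairs counted once), where 47.2% of all circRNAs tested were above 0. The median of the 11 was 0.78 beside -0.12 over all circRNAs tested. Of the 8, mmu_circRNA000710, mmu_circRNA000712, mmu_circRNA000716 and mmu_circRNA000718 met the filter through the 3 CUS libraries and 1 Control library, so they passed it through the group with more libraries above 0. Likewise, mmu_circRNA000714 met it with 2 CUS libraries and 1 Control library. The signs and the median describe rings of 1 gene chosen by its levels, and nothing is read from them either. Of 2227 host sums, 0 passed (0%) and 120 (5.39%) had an unadjusted p under 0.05, and the summed Fmn2 level had an adjusted p of 0.919 in limma.

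Fmn2 was then set beside other host genes in features that do not compare groups. Its number of rings and leading share are tied to the high levels by which it was selected. Its place among hosts in these features is therefore a description too. It had 14 circRNAs against a median of 2 over 3772 hosts, of which 1812 had 1. Long genes can form more rings, so hosts with a gene span within 20% of that of Fmn2 (256724 to 385086 bp) were taken as a reference. The 223 such hosts had 1 to 21 circRNAs with a median of 3, and 6 of them had at least as many as Fmn2, led by Dnah9 with 21 and by Rere and Stxbp5l with 16 each. In the same span range, 219 of 331 protein-coding genes had a circRNA.

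**Figure D4:**
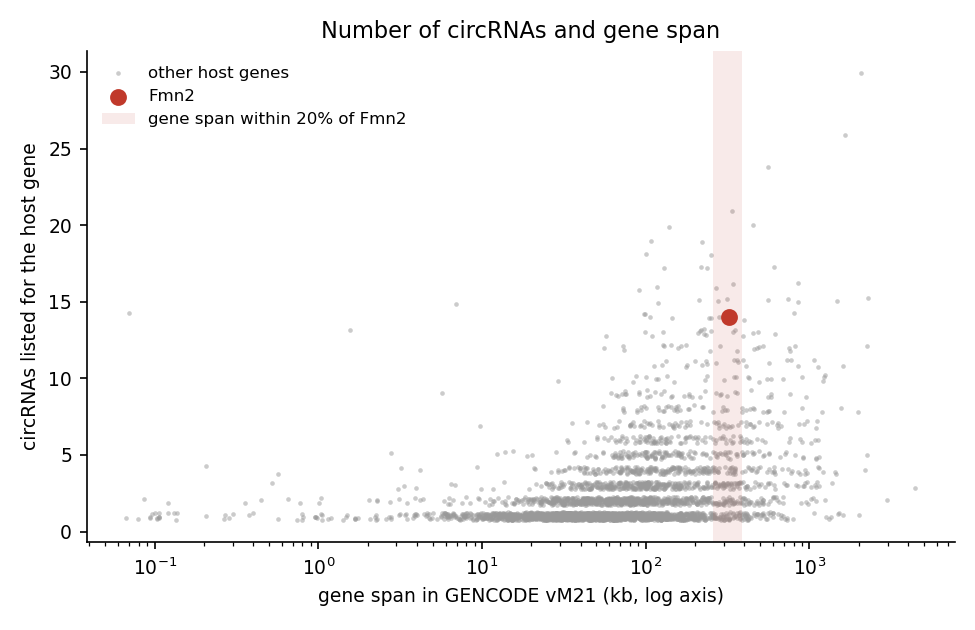
Number of circRNAs listed for each host gene (vertical axis, with a small vertical scatter so that points can be seen) against its gene span in kb on a log axis, with Fmn2 in red and the shaded band marking spans within 20% of it. Fmn2, with 14 circRNAs, lies above most hosts in the band, whose median is 3.

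The sum of Fmn2 was also concentrated in 1 ring. Over the 6 libraries mmu_circRNA000709 carried 55.0% of the mean summed level with pairs counted once, rank 13 of the 123 hosts with at least 10 circRNAs, whose median was 26.1%. Herc4 had the highest such share, 78.5%. Among the 20 circRNAs of highest mean, the coefficient of variation of mmu_circRNA000709 was 9.58% in Control and 23.2% in CUS, rank 3 and rank 4 from the lowest, beside medians of 31.3% and 34.8% and highest values of 82.3% and 67.7%.

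Other formin genes were listed too. Of these 14, 7 had a circRNA (16.5% of all protein-coding genes did), with 16 in all and a median of 2 per host, the same as over all hosts, and Diaph1, Diaph3, Fmnl2, Fmnl3, Fhod1, Inf2 and Grid2ip had none. The 16.5% takes no account of gene length. Among protein-coding genes in the span range of Fmn2, 219 of 331 had a circRNA. Diaph2, a formin of the diaphanous group, had 5 circRNAs with Control sums of 908, 421 and 226 and CUS sums of 348, 737 and 231, so the groups overlapped. Fmn1, the closest relative of Fmn2, had 4 circRNAs with Control sums of 0, 837 and 1027 and CUS sums of 0, 0 and 802. Fhod3 and Fmnl1 had 2 each and Daam1, Daam2 and Fhdc1 had 1 each. Fhod3, a formin of sarcomeric actin, had Control sums of 0, 282 and 0 and CUS sums of 129.7, 646 and 0. Fmnl1 and Fhdc1 were above 0 in 2 libraries each and Daam1 and Daam2 in 1. Of the 3 formin host sums tested, Diaph2, Fmn1 and Fhod3, 0 passed in limma and 0 had an unadjusted p under 0.05. Of the 16 rings 3 were above 0 in at least 3 libraries. In 1 of the 16 the groups did not overlap, mmu_circRNA011238 of Diaph2, chosen after its values were seen, with Control levels of 468, 202 and 226 and 0 in every CUS library (5.08% of circRNAs tested were lower in this way). It met the filter through the Control libraries alone.

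Genes of actin assembly and its regulation were read from a list of 66, of which 34 had a circRNA and 23 host sums were tested. In limma 0 of the 23 passed and 0 had an unadjusted p under 0.05. Fitted values were higher in CUS for 5 and lower for 18, with a median log2 difference of -0.28 beside -0.06 over all hosts. Among the 10 above 0 in all 6 libraries 6 were lower, and without CUS replicate 3 there were 10 lower of 20 tested. Groups did not overlap for 2 hosts, both lower in CUS (5.70% over all hosts), Actr3, an Arp2/3 complex subunit gene (167, 275 and 367 in Control against 0, 0 and 95.1), and Cttnbp2, a cortactin-binding protein gene (654, 935 and 213 against 195, 0 and 193). Actr3, Cobll1 and Rock2, all fitted lower, were above 0 in 3 Control libraries and 1 CUS library. These hosts met the filter through the group where they are high, and nothing is read from the counts.

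The 6 hosts of highest mean in this actin list overlapped between groups. Enah, an actin filament elongation factor gene, had Control levels of 4067, 1851 and 2115 and CUS levels of 3343, 4198 and 3463. Wasf1, a subunit gene of the WAVE complex that activates Arp2/3, had Control levels of 1789, 2130.4 and 1247 and CUS levels of 2164, 882 and 1509. Myo5b and Myo5a encode myosin V motors, of which Myo5b had Control levels of 1183, 2186 and 481 and CUS levels of 522, 2496 and 929.6. Myo5a had 2479, 267 and 1505 in Control against 684, 2114 and 356. Rab11a, a recycling endosome GTPase gene, had 623, 1626 and 1452 in Control against 831, 1896 and 829. Nckap1, another WAVE complex gene, had 1581, 845 and 604 in Control against 436, 914 and 1326. Of the Spire nucleators, Spire1 was listed above 0 in CUS replicate 1 (315), and Spire2 had no circRNA.

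Within 2 Mb of Fmn2 on chromosome 1, 3 host genes had circRNAs among 59 protein-coding genes. Pld5 had Control levels of 130.4, 224 and 1003 and CUS levels of 327, 204 and 147. Sdccag8, a centrosomal protein gene, had Control levels of 145, 1394 and 186 and CUS levels of 386, 1727 and 535, and Cep170 was above 0 in Control replicate 1 (654) and CUS replicate 2 (296). In none of the 3 were all CUS libraries above all Control libraries, an order that 5.61% of the host sums tested had. Cep170, above 0 in 2 libraries, was not tested, and nothing is read from the 3 hosts.

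Likeness to Fmn2 was measured as Pearson's r of log2(summed level + 45.5) over the 6 libraries, among 919 hosts above 0 in all of them. The highest r was 0.97 for Ezh2, a histone methyltransferase gene, and for Gnai1, an inhibitory G protein subunit gene. Ankfy1 and Faf1 followed with 0.95 each and Sirt4, a mitochondrial sirtuin gene, with 0.94, and 10 hosts were over 0.9. Ezh2 had Control levels of 579, 207 and 207 and CUS levels of 2067, 1232 and 764, and Faf1 had 1689.9, 1215 and 1258 in Control against 2907, 1748 and 1786. All 5 were highest in CUS replicate 1, as Fmn2 was, which is also the library of largest step (2.95 against 2.41 to 2.72). The points of each correlation share these libraries and their scale factors. Fmn2 was chosen with higher means in CUS, so hosts that follow it closely tend to be higher in CUS too. With 6 points and 919 hosts, high r can arise without a link, and a link was not tested.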

How the data were processed

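The authors deposited 1 table of circRNA values on a log10 scale, with 0 where a library has no value. The mm9 build, StringTie, DESeq and edgeR are named without a role in the submitters' processing notes, and no source used here names the circRNA caller. Levels were 10 to each value. Host symbols and positions came from GENCODE vM21 (GRCm38), where 4467 of 4483 identifiers matched. A circRNA with several hosts went to its only protein-coding host (583 of 786) or to none. Pairs of a host within 15% of the larger level, or within the lowest entry of the library, in every library and above 0 in at least 3, were counted once (66 circRNAs removed). CUS was compared with Control by limma 3.58.1 (R 4.3.3; linear model, moderated with a variance trend) on log2(level + 45.5), with p-values Benjamini-Hochberg adjusted over all circRNAs or hosts above 0 in at least 3 libraries, threshold 0.05. The pseudocount is the median of the 6 lowest nonzero levels, 1 from each library. Fold changes on this scale understate low circRNAs and are enlarged by entries of 0. Named genes were all Fmn2 circRNAs, formins with a circRNA, the 6 actin partners of highest mean, hosts within 2 Mb and the 5 hosts of highest r, with other names chosen after their values were seen. Members, lists and rules were chosen with earlier results of these data known. Some genes of the lists are not reported here. Python 3.11.15, numpy 2.4.6, pandas 2.3.3 and matplotlib 3.10.9 made tables and figures.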

Additional observations from a re-analysis of the deposited data

How the results depend on the processing

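Alternatives changed the pseudocount, filter, variance trend, scaling and treatment of paired or multi-host circRNAs, or left out 1 library. Counts of circRNAs and host sums past the threshold were 0 in all 14 and 18 alternatives. The log2 difference of mmu_circRNA000709 stayed above 0, from 0.75 to 0.80, and from 0.61 to 0.93 without 1 library. That of the Fmn2 sum ran from 0.33 (all members counted) to 0.56, and from 0.42 to 0.62 without 1 library. None passed, with adjusted p from limma of 0.342 to 0.962 and 0.748 to 0.962. The share difference ran from 8.80 to 14.9 points, and from 4.01 to 12.8 without 1 library. With the third close pair counted once, chosen after seeing the data, it was 8.87.

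Differences of 3 members changed sign in 7 cases, and the cause was not tested. mmu_circRNA000719 (-0.14) was at 0.089 with 5 times the pseudocount, 0.013 under quantile normalization, 0.44 without Control replicate 1 and 1.02 without CUS replicate 1, and at -0.91 to 1.02 without 1 library. mmu_circRNA000708 (0.69) was at -0.066 without Control replicate 2 and at -0.066 to 1.48 without 1 library. mmu_circRNA000705 (0.28) was at -0.48 and -0.05 without CUS replicates 1 and 2 and at -0.48 to 1.36 without 1 library. With the replicate block, 0 circRNAs and 0 host sums passed, and mmu_circRNA000709 and the Fmn2 sum kept differences of 0.78 and 0.54, the former with SE 0.54 in place of 0.36. Same-numbered libraries did not deviate together (r of -0.01, -0.03 and -0.02), so the numbers were not taken as pairs.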
